A study of Mus musculus with 8 samples.

Results

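The genes described here store and move lipid in macrophages, and several are established targets of PPAR gamma. They are Pparg itself, Fabp4, Fabp5, Plin2 (older name Adfp), Lpl, Angptl4, Pltp, Apoe and Acsl1. All probe sets whose annotation names 1 of these 9 genes were taken. That gave 15 probe sets for 8 genes, out of 22626 probe sets on the array without controls. The annotation used here names no probe set for Acsl1, a ligase that activates fatty acids, so it has no value. Of the 15 probe sets, 14 reached the signal filter and were tested among 18058 in all, which left each of the 8 genes with at least 1 tested probe set.

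The samples were mouse bone marrow derived macrophages (BMDM), cultured for 7 days with 50 ng/ml of the growth factor M-CSF. Mice were wild type and Vdr -/- (Vdr tm1 Rge, a knockout of the vitamin D receptor). Cells of each genotype were untreated, treated with IFN-gamma (a T and NK cell cytokine that activates macrophages), treated with calcitriol (1alpha,25(OH)2D3, the active vitamin D hormone) or treated with both. Each of these 8 groups was measured on 1 array, so no group has a replicate, and tests rest on contrasts repeated across the other factors. The labels give treatment times of 24 to 48 hours, and give no number of mice, no age and no strain. The labels describe a peritoneal preparation too, but the source of each sample is named as BMDM. An effect of genotype and one of the animals or cultures cannot be told apart.

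The arrays had median signals of 53.5 to 68.3, and their small number limits the precision. The 3'/5' signal ratio of the Gapdh control, which rises when labelled RNA is shortened towards its 3' end, was highest for wild type with calcitriol (7.67) and for untreated Vdr -/- (4.82). The third highest was Vdr -/- with IFN-gamma (3.06), and the other 5 arrays had 0.853 to 1.65. Vdr went against the labels of the untreated arrays. Probe set 1418176_at gave 5.3 for untreated wild type and 63.2 for untreated Vdr -/-, and the position of these probes relative to the deleted part is not known here. On the other 6 arrays it gave 82.9 to 385.9 in wild type and 2.5 to 23.6 in Vdr -/-. The other Vdr probe set, 1418175_at, gave 6.7 for untreated wild type and 90.3 for untreated Vdr -/-. On the other 6 arrays it gave 51.5 to 226.7 in wild type and 2.6 to 45.6 in Vdr -/-, a narrow separation. Values without the 2 arrays of highest Gapdh ratio, and without the 2 untreated ones, are also given below for some calls. These are the IFN-gamma calls at the brightest probe set of a gene, cell type markers aside, and the Pltp calls for calcitriol in wild type.

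PPAR gamma is a nuclear receptor that binds DNA together with RXR and is activated by fatty acids or their derivatives. In macrophages it is best known for switching on genes of lipid uptake, binding and storage. Fabp4 and Fabp5 carry fatty acids through the cytosol, and Plin2 coats lipid droplets. Lpl releases fatty acids from lipoprotein triglyceride, and Angptl4 is its secreted inhibitor. Pltp moves phospholipid between lipoproteins, and Apoe is the apolipoprotein that macrophages secrete when they export cholesterol. Plin2, Lpl and Angptl4 are familiar PPAR targets, while Pltp and Apoe are better known as targets of LXR, the oxysterol receptor.

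Promoter sequences are shown for Plin2, which was lower with IFN-gamma, and Pltp, which carried the calcitriol differences. Among the 9 genes, RefSeq sequence of build GRCm38.p6 was at hand for Plin2, Pltp, Pparg, Apoe and Acsl1. The 250 bases before the annotated start were searched on both strands, and 2 of the patterns are given here. The first was a direct repeat of the nuclear receptor motif AGGTCA with 1 base between the copies, the arrangement PPAR gamma and RXR prefer. The second was the same repeat with 3 bases between, the arrangement the vitamin D receptor prefers. Up to 2 mismatches over the 12 bases of the copies were allowed in both. Of 32851 mouse promoters of this length, 3.24% held the first and 2.6% the second. The only match to either in the promoters of these 5 genes was a repeat of the first kind in Plin2, shown in capitals, on the reverse of the printed strand and with 2 mismatches. It ended 212 bases before the start. The Plin2 window lies at chr4:86670060-86670309 and the Pltp window at chr2:164857709-164857958, both on the minus strand and both upstream of the transcript.
Plin2: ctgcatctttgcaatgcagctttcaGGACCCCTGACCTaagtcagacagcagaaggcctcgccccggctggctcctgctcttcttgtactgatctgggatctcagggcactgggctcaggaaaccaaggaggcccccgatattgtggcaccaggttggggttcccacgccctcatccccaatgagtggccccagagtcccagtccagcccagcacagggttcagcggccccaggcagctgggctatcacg
Pltp: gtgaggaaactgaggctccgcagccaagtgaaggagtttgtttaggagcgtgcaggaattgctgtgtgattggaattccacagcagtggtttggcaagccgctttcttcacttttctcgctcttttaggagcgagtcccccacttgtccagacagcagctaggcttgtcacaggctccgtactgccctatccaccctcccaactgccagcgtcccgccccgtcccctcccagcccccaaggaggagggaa
A match is a description of the letters and not a measured site.

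With IFN-gamma, Fabp4, Plin2 and Fabp5 fell, by 8.33-fold, 3.44-fold and 1.84-fold, and Angptl4 fell towards the floor of the signals. Pparg, Lpl, Pltp at its brightest probe set, and Apoe did not pass the test. In counts, 4 of the 8 genes fell at their brightest probe set and 0 rose. Over probe sets, 9 of 14 fell, where 1.27% of all 18058 tested probe sets fell and 2.15% rose. Signals on the 4 IFN-gamma arrays all lay below those on the 4 arrays without it for 8 of the 14 probe sets, which came from the same 4 genes, against 3.53% of all tested. Of the 14, 2 (Fabp4 1425809_at and Angptl4 1417130_s_at) reached the signal filter only on arrays without IFN-gamma, so the filter fixed their direction and their calls are no support. Of the other 12, 7 fell and 6 did not overlap. By brightest probe set, that leaves Fabp4, Plin2 and Fabp5 as the genes called. The test was limma over the 4 pairs of arrays that differ in IFN-gamma alone, with Benjamini-Hochberg adjustment over all probe sets tested. The median log2 change of the 8 genes was -0.798 and that of all tested probe sets was -0.08. A lower signal in a culture can come from fewer cells of a type or from less RNA per cell, which cannot be told apart here.

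**Figure D1:**
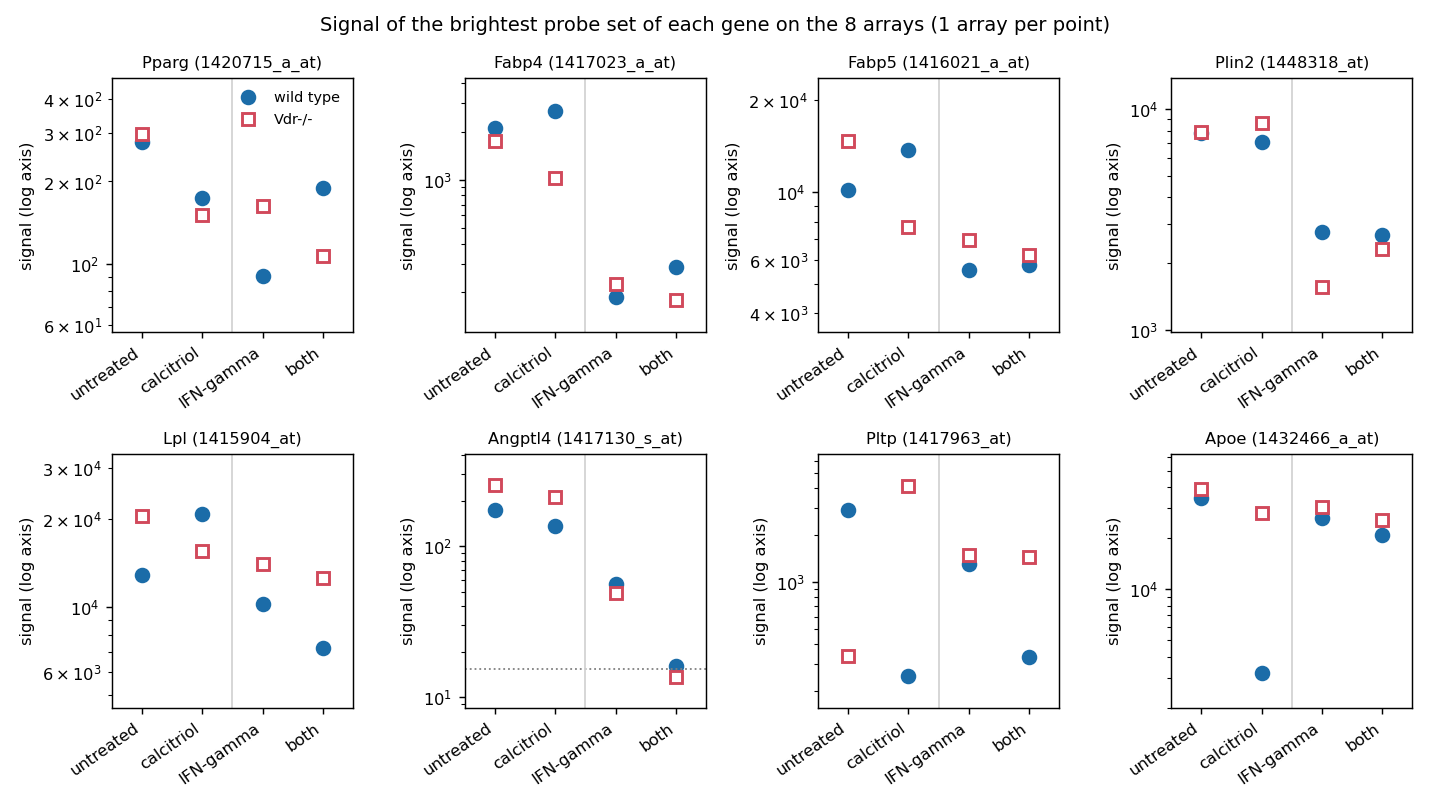
Signal of the brightest tested probe set of each of the 8 genes on each of the 8 arrays (vertical log axis, linear signal units scaled by the authors), grouped by genotype and treatment. The dotted line in the Angptl4 panel is the floor of 15.5. A reader should see that for Fabp4, Plin2, Angptl4 and Fabp5 every IFN-gamma array lies below every array without it, while Pparg, Lpl, Pltp and Apoe overlap.

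Pparg, the receptor gene, had 1 probe set (1420715_a_at). Without IFN-gamma it read 277.8 in wild type untreated, 174.0 in wild type with calcitriol, 297.0 in Vdr -/- untreated and 150.9 in Vdr -/- with calcitriol. With IFN-gamma it read 90.2 in wild type, 188.9 in wild type with both agents, 162.4 in Vdr -/- and 106.6 in Vdr -/- with both. The ranges overlapped, and the wild-type calcitriol pair was the exception among 4 pairs, with a log2 difference of 0.12 against -1.62 to -0.5 in the other 3. The log2 change was -0.72 (SE 0.351, limma adjusted p = 0.408). Its level with IFN-gamma was lower in 3 of 4 pairs, and the test did not call it.

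Fabp4, the fatty acid binding protein of adipocytes and macrophages, fell in all 4 of its probe sets. For 1 of them, 1425809_at, the filter fixed the direction. Its brightest probe set, 1417023_a_at, read 2110.5 in wild type untreated, 2687.3 in wild type with calcitriol, 1747.5 in Vdr -/- untreated and 1032.1 in Vdr -/- with calcitriol. With IFN-gamma it read 184.8 in wild type, 285.7 in wild type with both, 225.3 in Vdr -/- and 179.0 in Vdr -/- with both. The lowest array without IFN-gamma stood well above the highest with it, and the log2 change was -3.06 (SE 0.234, limma adjusted p = 2.05e-09), with pairs between -3.51 and -2.53. Probe set 1451263_a_at fell 4.36-fold (log2 -2.12, SE 0.457, limma adjusted p = 0.00578) and was called in 7 of 15 alternatives. Probe set 1424155_at gave a log2 change of -2.21 (SE 0.545, limma adjusted p = 0.0188), called in 5 of 15 alternatives. Its Vdr -/- IFN-gamma array (3.0) lay under the floor of 15.5, so its size moves with the floor, from -2.61 with a lower one to -1.59 with a higher one. Probe set 1425809_at read 77.5 to 130.5 without IFN-gamma and was under the floor on all 4 IFN-gamma arrays. Its fall of 6.63-fold therefore rests on the floor, with log2 -3.46 at a lower one and -1.36 at a higher one. It reached the filter only without IFN-gamma, so its fall is no support, and with no filter its limma adjusted p was 0.128. Probe sets 1424155_at (0.24) and 1451263_a_at (0.251) were not called with no filter either, while 1417023_a_at was (0.0122).

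Fabp5, the epidermal type of fatty acid binding protein, fell by less. Probe set 1416021_a_at read 10132.4 in wild type untreated, 13742.4 in wild type with calcitriol, 14709.2 in Vdr -/- untreated and 7695.3 in Vdr -/- with calcitriol. It read 5551.0, 5765.4, 6976.7 and 6204.9 on the IFN-gamma arrays of wild type, wild type with both, Vdr -/- and Vdr -/- with both. The groups did not overlap, but the Vdr -/- calcitriol array was close to the highest IFN-gamma array, and the log2 change of -0.88 (SE 0.247, limma adjusted p = 0.049) was just inside the threshold. Probe set 1416022_at fell by 1.22 on the log2 scale (SE 0.23, limma adjusted p = 0.00157), from 4754.1 to 8609.8 down to 2500.0 to 3187.7. Fabp4 and Fabp5 lie on chromosome 3 with 4 annotated genes between them, of which 2 code for proteins, Pmp2 and Fabp9.

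Plin2, the coat protein of lipid droplets, was steady across the arrays without IFN-gamma. Probe set 1448318_at read 7775.6 in wild type untreated, 7111.2 in wild type with calcitriol, 7851.1 in Vdr -/- untreated and 8636.7 in Vdr -/- with calcitriol. With IFN-gamma it read 2760.4 in wild type, 2685.5 in wild type with both, 1554.3 in Vdr -/- and 2320.1 in Vdr -/- with both. The groups stood apart, and the log2 change was -1.78 (SE 0.228, limma adjusted p = 1.06e-05). The pairs gave log2 differences of -1.49 and -1.4 in wild type and -2.34 and -1.9 in Vdr -/-, a difference between genotypes that limma did not call.

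**Figure D2:**
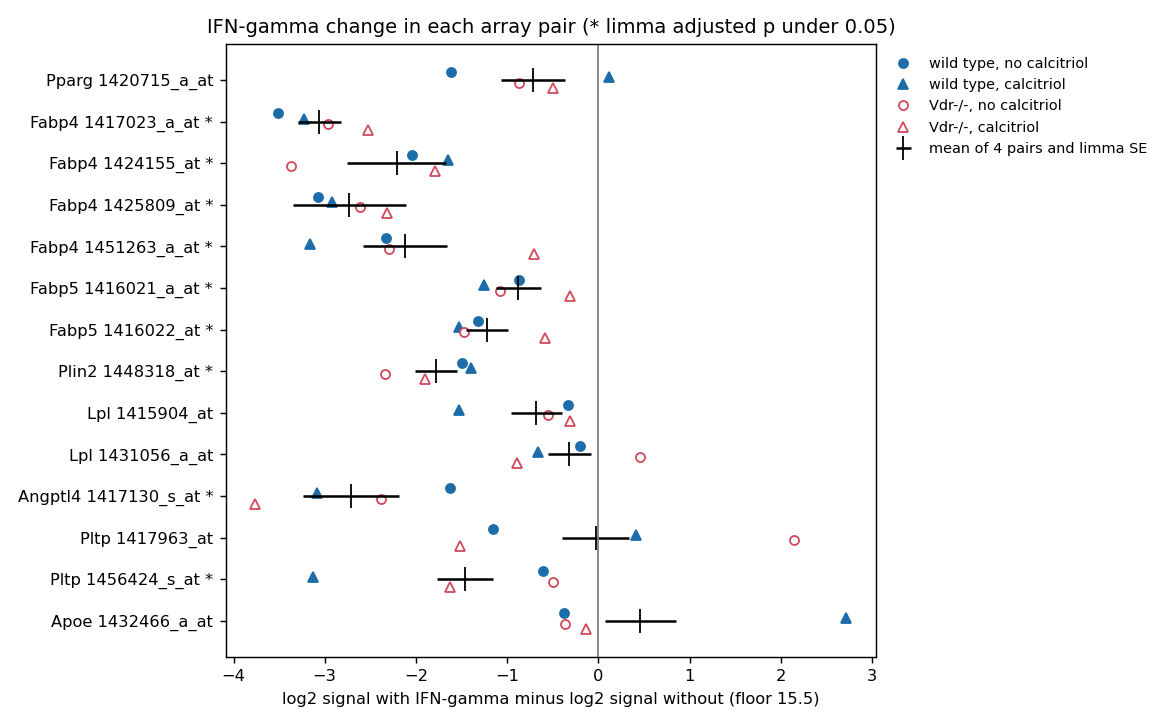
Log2 change with IFN-gamma (horizontal axis) for each of the 14 tested probe sets, with 1 point for each of the 4 array pairs and the limma estimate with its standard error. Fabp4, Plin2, Angptl4 and both Fabp5 probe sets have all 4 pairs below 0. So do Lpl 1415904_at, which was not called, and Pltp 1456424_s_at, while the brightest Pltp probe set has pairs from -1.52 to 2.14.

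The lipase and its inhibitor differed in their calls. Lpl at probe set 1415904_at read 12854.1 in wild type untreated, 20850.9 in wild type with calcitriol, 20543.6 in Vdr -/- untreated and 15600.0 in Vdr -/- with calcitriol. On the IFN-gamma arrays it read 10243.8 in wild type, 7208.7 in wild type with both, 14020.4 in Vdr -/- and 12555.0 in Vdr -/- with both. All 4 pairs were lower, but the ranges overlapped, and the log2 change was -0.68 (SE 0.277, limma adjusted p = 0.273). Its second probe set, 1431056_a_at, also missed the threshold, at -0.32 (SE 0.235, limma adjusted p = 0.653).

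Angptl4, the lipase inhibitor, fell towards the floor. Probe set 1417130_s_at read 172.8 in wild type untreated, 136.0 in wild type with calcitriol, 254.1 in Vdr -/- untreated and 210.0 in Vdr -/- with calcitriol. With IFN-gamma it read 55.8 in wild type, 16.1 in wild type with both, 48.7 in Vdr -/- and 13.6 in Vdr -/- with both. The groups did not overlap, and the log2 change was -2.71 (SE 0.523, limma adjusted p = 0.00196). This probe set reached the filter of 59.1 only on arrays without IFN-gamma, which fixed its direction, and with no filter the limma adjusted p was 0.168. Loss of the call with no filter was not particular to Angptl4. Plin2 then had a limma adjusted p of 0.0687, and the Fabp5 probe sets 0.37 and 0.176. The arrays with both agents lay at or near the floor, so the size moves with it, from -2.76 with a lower floor to -2.04 with a higher one. A second Angptl4 probe set, 1453410_at, peaked at 58.8, just under the filter of 59.1, and was not tested. It read 58.8 on the Vdr -/- untreated array, 41.9 on the Vdr -/- array with both agents and 23.9 or less on the other 6.

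Pltp and Apoe act on lipoproteins. The Pltp probe set with the highest mean signal, 1417963_at, read 2901.9 in wild type untreated, 249.8 in wild type with calcitriol, 337.2 in Vdr -/- untreated and 4136.0 in Vdr -/- with calcitriol. With IFN-gamma it read 1300.6 in wild type, 332.5 in wild type with both, 1484.5 in Vdr -/- and 1442.8 in Vdr -/- with both. Its log2 change with IFN-gamma was -0.03 (SE 0.366, limma adjusted p = 0.988), and the pairs went both ways. The other, 1456424_s_at, read 1539.9, 787.9, 1624.6 and 2807.6 without IFN-gamma and 1009.5, 90.3, 1152.6 and 908.6 with it, in the same order of groups. It fell by 1.46 on the log2 scale (SE 0.304, limma adjusted p = 0.004), with all 4 pairs lower although the ranges overlapped. It was called in 5 of 15 alternatives, so the fall of Pltp with IFN-gamma is uncertain, and its probe sets disagree on it.

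Apoe had 1 probe set (1432466_a_at). It read 34252.1 in wild type untreated, 3185.1 in wild type with calcitriol, 39069.7 in Vdr -/- untreated and 28060.2 in Vdr -/- with calcitriol. With IFN-gamma it read 26263.1 in wild type, 20942.6 in wild type with both, 30299.5 in Vdr -/- and 25497.7 in Vdr -/- with both. The wild-type calcitriol array, the one with the highest Gapdh ratio, stood apart from the other 7. The log2 change with IFN-gamma was 0.46 (SE 0.392, limma adjusted p = 0.713) and -0.28 without the 2 arrays of highest Gapdh ratio.

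The IFN-gamma calls did not all hold with arrays left out. Without the 2 arrays of highest Gapdh ratio limma called 0 of the 8 genes, with 4 at an unadjusted p under 0.05, where 53 of all 18058 probe sets were called and 1589 had such a p. Without the 2 untreated arrays it called 0, with 3 at an unadjusted p under 0.05, where 24 of all were called and 1143 had such a p. Fabp4 read -2.78 (limma adjusted p = 0.0792) and -2.88 (limma adjusted p = 0.221) in these fits. Plin2 read -1.85 (0.102) and -1.65 (0.589), Angptl4 -2.73 (0.359) and -3.42 (0.536), and Fabp5 at 1416021_a_at -0.53 (0.627) and -0.78 (0.819). Pparg, which was not called with all arrays, read -0.64 and -0.19. With 1 of the 4 pairs left out in turn, 2 to 3 genes were called, and Fabp4 and Plin2 were among them each time. Fabp5 at 1416021_a_at missed the threshold with any of the pairs left out, at limma adjusted p of 0.0798 to 0.517. Angptl4 missed it without the Vdr -/- pair lacking calcitriol (0.217), the wild-type pair lacking calcitriol (0.0825) and the wild-type pair with calcitriol (0.182). Fabp5 at the probe set of higher mean signal was called in 4 of 16 alternatives, Plin2 in 12 of 16 and Fabp4 in 14 of 16. The sign of each held in all of them. Angptl4 was called in 9 of 16, but the filter fixed its direction, so its calls and sign are no support.

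Other genes of lipid handling were described by fixed lists, each gene by its brightest probe set, and their counts stand beside the 1.27% of all probe sets that fell and the 2.15% that rose. Of 14 listed lipid droplet, storage and lipolysis genes that were tested, 1 fell and 0 rose, with a median log2 change of -0.506 against -0.08 over all probe sets. The gene that fell was Lpin1, a phosphatidate phosphatase of triglyceride synthesis, from 169.6 to 281.8 down to 31.1 to 147.2 (log2 -1.42, SE 0.392, limma adjusted p = 0.0433). The 1 other tested Lpin1 probe set read lower too but was not called.

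Among 12 other PPAR targets and fatty acid oxidation genes, 1 fell and 0 rose, with a median log2 change of -0.156. It was Cd36, a scavenger receptor that takes up fatty acids and oxidised lipoprotein, at 1161.6 to 3226.6 without IFN-gamma and 827.4 to 1235.8 with it (log2 -0.98, SE 0.245, limma adjusted p = 0.0211). Of 6 partners of the lipase and lipoprotein receptors, 1 fell and 0 rose, with a median of -0.515. That was Sort1, the sorting receptor sortilin, from 378.3 to 586.8 down to 136.7 to 208.5 (log2 -1.46, SE 0.273, limma adjusted p = 0.00146). Of 4 fatty acid activation and uptake genes limma called 0, with 0 at an unadjusted p under 0.05 (median -0.122). Without the 2 arrays of highest Gapdh ratio, Lpin1 gave -1.32 (limma adjusted p = 0.47), Cd36 -0.84 (0.599) and Sort1 -1.49 (0.275), so none of the 3 was called. Without the 2 untreated arrays they gave -0.98 (0.819), -1.27 (0.7) and -1.25 (0.755). Sort1 had 2 other tested probe sets, of which 1 shared the direction and 0 were called, and the mean of its probe sets gave -0.37. The 2 other Cd36 probe sets both read lower, and 1 was called.

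Of 10 nuclear receptors, partners and coregulators, 0 fell and 1 rose, with a median log2 change of -0.15. Ppargc1b, a coactivator of nuclear receptors, read 35.3 to 74.5 without IFN-gamma and 105.3 to 415.6 with it (log2 1.73, SE 0.44, limma adjusted p = 0.0239), with 2.0 (0.439) without the 2 arrays of highest Gapdh ratio and 2.55 (0.636) without the 2 untreated arrays. Over the 46 tested genes of these lists, limma called 0 for genotype, for calcitriol in wild type and in Vdr -/-, and for the genotype differences in the calcitriol and IFN-gamma effects. At an unadjusted p under 0.05 these were 4, 7, 3, 10 and 2 genes, where 3.38%, 10.3%, 6.35%, 12.2% and 3.52% of all probe sets had such a p.

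Markers of cell types were summed on each array. The 7 macrophage markers summed to 51663 to 58317 without IFN-gamma and 35280 to 50991 with it, and the ranges did not overlap, although 1 of them, Fcgr1, rose. Csf1r read 9768.9 to 23760.8 and Lyz2 16652.0 to 28242.7 over the 8 arrays, so both defining markers were present throughout. Of the 6 stromal markers, 5 reached the filter, and the sums were 344 to 606 without IFN-gamma and 152 to 307 with it, with Col3a1 the 1 gene that fell. Of the 7 neutrophil markers, 5 reached the filter, with sums of 304 to 423 without and 201 to 281 with IFN-gamma. These 3 sums moved in the direction of Fabp4, Plin2, Angptl4 and Fabp5, and their part in that result was not tested. Of 8 adipocyte markers, which bear on Fabp4, 6 had a probe set and 4 reached the filter, with sums of 67 to 347 without and 136 to 318 with IFN-gamma, which overlapped. The 4 that reached the filter peaked at 65.5 (Adipoq, the adipocyte hormone), 74.6 (Lep), 83.3 (Retn) and 162.7 (Slc2a4). The sum was highest (347) for wild type with calcitriol, where the brightest Fabp4 probe set was highest too (2687.3). Other arrays went the other way. The sum was 318 for wild type with both agents, where Fabp4 read 285.7. It was 86 for wild type untreated, where Fabp4 read 2110.5. The part of adipocytes in the Fabp4 values was not tested. The endothelial sums of 113 to 345 and 162 to 270 also overlapped, as did the dendritic sums of 50 to 172 and 84 to 174.

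Genes whose pattern over the 8 arrays was most like that of Pparg, Fabp4 and Plin2 were found by Pearson's r of log2 signal among 9529 probe sets that spanned at least 2 log2 units. For Plin2 they were Mmp12 (r = 0.977), the macrophage elastase, Lgals1 (r = 0.967), a galectin, and Ccl9 (r = 0.964), a chemokine. Mmp12 read 2330.9 to 5625.0 without IFN-gamma and 35.1 to 149.9 with it, so it separated the same arrays. For Fabp4 they were Rttn (r = 0.986), Erbin (r = 0.978) and Mfge8 (r = 0.976), the last a secreted bridge between phagocytes and dying cells. Mfge8 read 3400.0 to 7236.0 without and 573.5 to 1179.5 with IFN-gamma. Rttn read 50.6 to 131.4 without and 4.9 to 29.4 with it, and Erbin 56.5 to 83.9 and 8.4 to 31.6. Rttn and Erbin reached the filter only without IFN-gamma, so the filter fixed their direction and their likeness is no support. For Pparg they were Pkp4 (r = 0.961), Pex6 (r = 0.923) and Cert1 (r = 0.918). Pex6 read 30.0 to 66.9 without and 12.3 to 39.7 with IFN-gamma, and Cert1 40.4 to 76.0 and 18.6 to 57.1. Pex6 and Cert1 also reached the filter only without IFN-gamma, so their likeness is no support either. All points share the 8 arrays, which for Fabp4 and Plin2 split into those with and without IFN-gamma. Within the 8 genes, Fabp4 and Plin2 had r = 0.915 and Fabp4 and Fabp5 had r = 0.901, while Pltp and Plin2 had r = 0.008.

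With calcitriol, Pltp was the only gene of the 8 that limma called within a genotype, in wild type. Both its probe sets fell with calcitriol in wild type, so that 2 of 14 probe sets were called, against 0.388% of all probe sets called lower. The brighter, 1417963_at, fell 6.74-fold (log2 -2.75, SE 0.519, limma adjusted p = 0.014), with log2 differences of -3.54 without IFN-gamma and -1.97 with it. The other, 1456424_s_at, fell 4.67-fold (log2 -2.22, SE 0.425, limma adjusted p = 0.0154), with -0.97 and -3.48. The brighter probe set was lowest of all arrays on the wild-type calcitriol array and the other on the wild-type array with both agents. The Gapdh ratios of those arrays were 7.67 and 1.65.

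**Figure D3:**
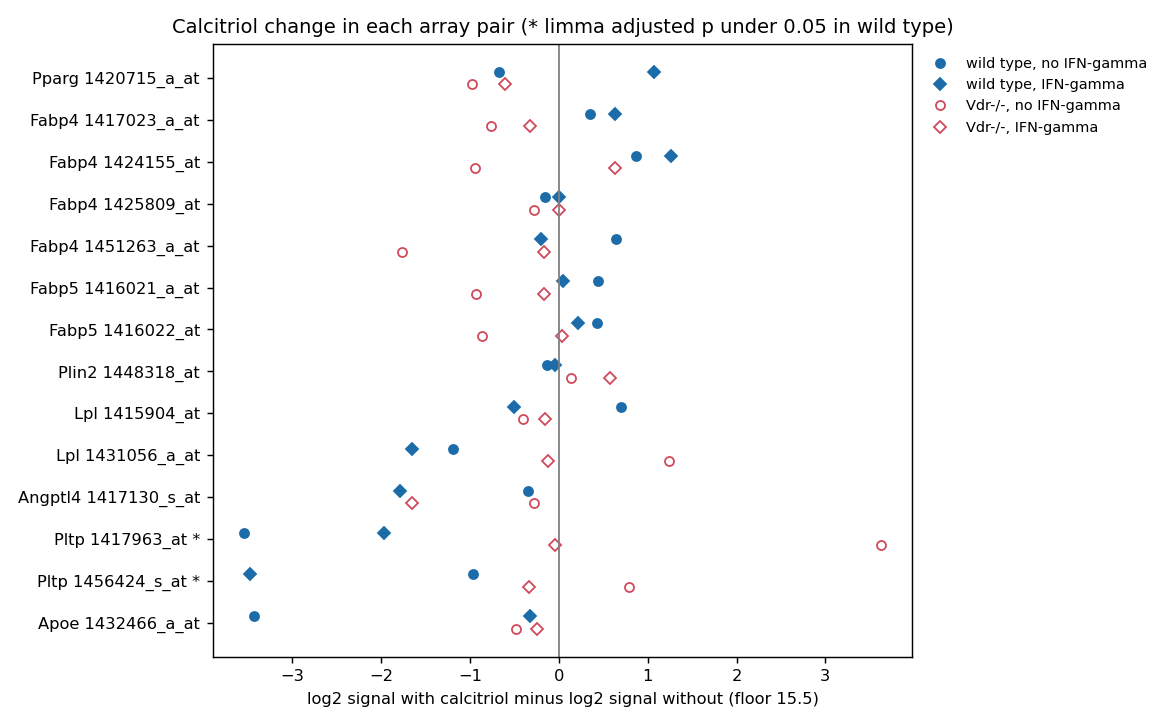
Log2 change with calcitriol for each tested probe set in wild type and in Vdr -/-, with 1 point for each array pair, without and with IFN-gamma. The brightest Pltp probe set had -3.54 and -1.97 in the wild-type pairs, and gave 3.62 in the Vdr -/- pair without IFN-gamma and -0.04 in the pair with it.

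In Vdr -/-, limma called 0 of 14 probe sets of these genes for calcitriol, where 0.194% of all probe sets rose. At an unadjusted p under 0.05 it was 1 of 14, against 6.35% of all. The brighter Pltp probe set read 1.79 higher on the log2 scale (SE 0.519, limma adjusted p = 0.245), with pairs of 3.62 and -0.04, and the first pair rests on the untreated array whose Vdr signal went against its label. That array also had the second highest Gapdh ratio (4.82), after wild type with calcitriol (7.67). Both of these arrays enter the difference between genotypes given next, so RNA quality and that difference cannot be told apart. The test of the difference between genotypes called both Pltp probe sets lower in wild type, at -4.54 (SE 0.734, limma adjusted p = 0.00205) and -2.45 (SE 0.602, limma adjusted p = 0.0367). The second Lpl probe set was called as well (-1.98, SE 0.497, limma adjusted p = 0.0412). These 3 of 14 probe sets stand beside 1.33% of all tested that were called lower in this difference.

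The calls for Pltp mostly did not hold where arrays were removed or relabelled. In wild type the brighter probe set gave -1.88 (limma adjusted p = 0.599) without the 2 arrays of highest Gapdh ratio, -2.45 (0.844) without the 2 untreated arrays and -1.2 (0.279) with the untreated labels exchanged. With the Gapdh ratio as a covariate it gave -0.58 (limma adjusted p = 0.878), and the other probe set -3.55 (limma adjusted p = 1.86e-08). The other probe set gave -3.23 (0.599), -3.11 (0.844) and -2.26 (0.0533) under the removals and the exchange. The genotype difference of the brighter probe set went from -4.54 to 0.17 (limma adjusted p = 0.994) with that covariate, and to -1.44 (0.656) with labels exchanged. The other probe set gave -5.32 (0.000117) and -2.53 (0.285) for these. The second Lpl probe set gave -1.74 (0.771) and -1.1 (0.734). With 1 pair left out, none of the 3 probe sets was called, and the differences ran from -6.37 to -2.71 for the brighter Pltp probe set, from -3.71 to -1.19 for the other and from -2.66 to -1.3 for Lpl.

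Pltp and Lpl each had probe sets whose ratio shifted between arrays. For Pltp the ratio of the second to the brighter probe set was 3.15 for wild type with calcitriol and 4.82 for untreated Vdr -/-, and 0.272 to 0.776 on the other 6. For Lpl the ratio of the first to the second probe set was 10.4 and 8.3 on the same arrays and 2.57 to 5.68 on the other 6. Those 2 arrays had the highest Gapdh ratios, 7.67 and 4.82. For Fabp5 the ratio was 1.64 and 1.71 on them, within the range of 1.62 to 2.24 over all 8 arrays. The change of a ratio between arrays, not its size, is what these values show. The part of RNA quality in the Pltp and Lpl results was not tested beyond the covariate and the removals given here.

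**Figure D4:**
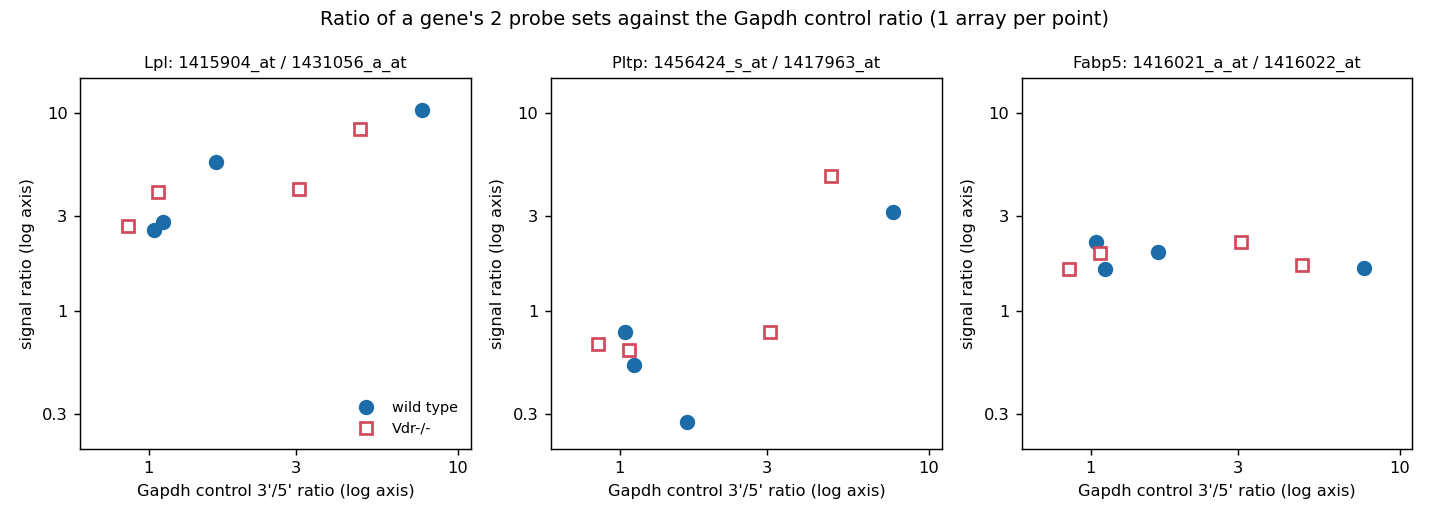
Ratio of signals between a pair of probe sets of the same gene (vertical log axis) for Lpl, Pltp and Fabp5 on each array, set against the Gapdh 3'/5' ratio (horizontal log axis). The arrays at Gapdh ratios of 7.67 and 4.82 have the highest Lpl and Pltp ratios, while the Fabp5 ratios stay between 1.62 and 2.24.

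The rest of the genes gave no call for calcitriol in limma. Apoe was lower in both wild-type pairs, with log2 differences of -3.43 and -0.33 (mean -1.88, SE 0.556, limma adjusted p = 0.153), the larger from the array with the highest Gapdh ratio, and in Vdr -/- it was -0.36. The second Lpl probe set read -1.42 in wild type (SE 0.351, limma adjusted p = 0.0719) and 0.56 in Vdr -/-. Angptl4 read -1.07 in wild type and -0.96 in Vdr -/- (limma adjusted p = 0.676 and 0.93), lower in all 4 pairs. Fabp4 read 0.49 and -0.55 at its brightest probe set (limma adjusted p = 0.658 and 0.888). Pparg read 0.2 and -0.79 (limma adjusted p = 0.925 and 0.901), with wild-type pairs of -0.67 and 1.07.

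Genotype gave no call with the arrays as labelled. Between wild type and Vdr -/- over 4 pairs, limma called 0.0% of all probe sets, while 611, or 3.38%, had an unadjusted p under 0.05. Of the 14 probe sets of these genes 1 did, the second Pltp probe set, which was lower in wild type in all 4 pairs (-1.36, SE 0.4, unadjusted p = 0.00266, limma adjusted p = 0.999). The brighter Pltp probe set was -0.81, with pairs of 3.11, -4.05, -0.19 and -2.12. It was called when the untreated arrays swapped labels (-2.37, limma adjusted p = 0.00532), among 7 probe sets in all, and the second Pltp probe set was not (-1.32, 0.197). With the Gapdh ratio as a covariate the second was called (-1.35, limma adjusted p = 2.28e-05), among 86 in all, and the brighter was not (-0.78, 0.0852). Without the 2 arrays of highest Gapdh ratio and without the 2 untreated arrays, the brighter gave -1.24 and -2.12 and the second -2.02 and -1.79, none of them called. Fabp4 read 0.51, Plin2 0.19, Pparg 0.02, Fabp5 -0.03, Angptl4 -0.23, Lpl -0.38 and Apoe -0.95 in log2 for wild type minus Vdr -/-. The difference in IFN-gamma effect between genotypes also gave 0.0% called by limma, with 635 probe sets, or 3.52%, at an unadjusted p under 0.05 and 0 of the 14. With exchanged labels it called 109 of all, among them the brighter Pltp probe set (2.42, limma adjusted p = 0.026). With 1 array a group, these values leave the falls of Fabp4, Plin2, Angptl4 and Fabp5 in the 2 genotypes without a called difference, which does not show that they are alike.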

How the data were processed

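The authors deposited linear intensity signals per probe set, scaled to a common 2% trimmed mean on each array, as the values show. Software and doses: not given in the sources used here. Times and culture are per the labels.

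With 64 control probe sets set aside, signals under the pooled 25th percentile (15.5) were raised to it. A probe set was tested on the log2 scale if its maximum was at least the pooled median (59.1). The test was limma 3.58.1 in R 4.3.3, two-sided, with an intensity trend and Benjamini-Hochberg adjustment over all 18058 at 0.05. IFN-gamma and genotype used 4 array pairs as blocks, leaving 3 residual degrees of freedom. Calcitriol effects and differences between genotypes used treatments nested in genotype, leaving 2. The p-values rest on the spread between these array pairs, drawn by limma towards a trend over all probe sets. An SE can therefore be smaller than a probe set's own pairs would give. An example is Pltp 1417963_at with IFN-gamma (pairs of -1.52 to 2.14, SE 0.366). A gene is represented by its brightest probe set by mean signal. The annotation gave 20380 probe sets 1 gene, 691 several and 1555 none, and the first kind alone was named. Named genes were all members, the list genes called for IFN-gamma, and the 3 genes most like Pparg, Fabp4 and Plin2 by Pearson's r. Alternatives changed the normalization, filter, floor, variance trend, model, probe set rule and arrays used. The fits were run on simulated data with independent noise and no differences in RNA quality or labels. That run checks the code and cannot bear on the calls made here. The result of 1 further promoter pattern is not reported here. Figures used Python 3.11.15 and matplotlib 3.10.9. The genes, lists and tests were chosen with earlier results of these data known.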

Additional observations from a re-analysis of the deposited data

Results flagged for a closer look

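These 3 results differed between the genotypes in the test of the calcitriol effect itself. The brighter Pltp probe set had a difference of -4.54 on the log2 scale (limma adjusted p = 0.00205), from -2.75 in wild type and 1.79 in Vdr -/-. The other Pltp probe set had -2.45 (limma adjusted p = 0.0367), from -2.22 and 0.22. The second Lpl probe set had -1.98 (limma adjusted p = 0.0412), from -1.42 and 0.56. In this order they were called in 5 of 16, 3 of 15 and 3 of 15 alternatives, and none was called with 1 pair left out. With the Gapdh ratio as a covariate, the brighter Pltp probe set gave 0.17 (limma adjusted p = 0.994) and the other -5.32 (limma adjusted p = 0.000117). The second Lpl probe set was not called with that covariate. With 1 array a group, no array could be set apart from replicates of its own group.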

How the results depend on the processing

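For IFN-gamma, 4 of the 8 genes were called, and 3 or 4 were called under quantile normalization, a stricter filter, other floors, additive covariates, exchanged untreated labels, the Gapdh covariate and the mean over probe sets. The 4 include Angptl4, whose direction the filter fixed. The count was 1 with no filter and 1 with no intensity trend (Fabp4 in both). It was 0 without the 2 arrays of highest Gapdh ratio and 0 without the 2 untreated arrays, and 2 to 3 with a pair of arrays left out. For genotype, 0 genes became 1 with the untreated labels exchanged (Pltp, -2.37). For calcitriol in wild type, the 1 gene (Pltp) became 0 with no filter, a stricter filter, a lower floor, no trend, both removals of arrays, exchanged labels and the Gapdh covariate, and 0 with any pair left out. For the calcitriol difference, 1 became 0 under the same settings except the lower floor, and 0 with any pair left out. For the IFN-gamma difference, 0 became 1 with exchanged labels, where the brighter Pltp probe set turned to 2.42 (limma adjusted p = 0.026). The calcitriol difference of that probe set turned to 0.17 with the Gapdh covariate. The cause was not tested. Signals near the floor and fits with 2 or 3 residual degrees of freedom limit what can be called. No paired analysis was possible beyond the array pairs because no group has a replicate.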
